A study of Mus musculus with 6 samples.

Results

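The genes described here are those of the cytosolic ribosomal proteins of the mouse, measured by RNA-seq in bone-marrow-derived macrophages (BMDMs). They were chosen by symbol alone, as Rpl or Rps followed by a digit, or Rplp0, Rplp1, Rplp2 or Rpsa, without symbols that carry "-ps" (processed pseudogenes by name) and without the kinases named for Rps6. This rule took 93 of the 54532 genes in the files, by symbol 55 of the large (Rpl) and 38 of the small (Rps) ribosomal subunit. By annotation 86 of the 93 are protein-coding and 7 are pseudogenes without "-ps" in the symbol. Of the 93, 89 (52 and 37) reached at least 1 TPM in at least 2 libraries and were tested, as were 12755 genes in all. TPM is a transcript level in which each read count is corrected for the length of its gene and every library is brought to an equal sum.

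BMDMs are macrophages grown from bone marrow, here from WT C57BL/6 mice over 6 days in L929-conditioned medium, a source of the growth factor M-CSF. One group stayed untreated (Untr), another received lipopolysaccharide (LPS), a component of the bacterial wall, at 100 ng/ml over 2 h, and the remaining one (Met + LPS) received 5 mM metformin, an antidiabetic drug, over 6 h before an identical LPS stimulation. Each group had 2 libraries, A and B, and no group received metformin without LPS. The labels do not say whether A and B came from separate mice, so p-values measure the spread between these libraries only, which may be technical.

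A ribosome joins a large and a small subunit, and apart from the rRNAs it holds a fixed set of ribosomal proteins, which cells make in matched amounts. Their mRNAs are abundant and long-lived, and in vertebrates they begin with a 5′ terminal oligopyrimidine (TOP) tract, a C followed by a run of C and T. Through this tract the kinase mTORC1, which senses nutrients and energy, controls their translation, with Larp1 and the 4E-BPs as repressors. Metformin lowers ATP production and activates AMPK, which restrains mTORC1. Translation itself is not visible in these data, which hold mRNA levels only.

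The sequences below show the letters around the listed start, where a TOP tract would lie, in the members that differed most and least between Met + LPS and LPS. They are the 6 members with the largest and the 6 with the smallest log2 fold change among members averaging at least 10 TPM with a RefSeq promoter (build GRCm38.p6), without Rps19bp1, Rps14 and Rpl17. Each runs 5′ to 3′ on the gene's strand from 30 bases before the listed start through the first 30 bases of the transcript, and the capitals mark the longest run of C and T in the window, or the first of 2 equally long runs in Rps7, Rpl10a and Rps27l. The first 6 had the largest changes.
Rpl13a, chr7:45128716-45128775, minus strand: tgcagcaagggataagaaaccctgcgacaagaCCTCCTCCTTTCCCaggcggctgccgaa
Rpl27a, chr7:109519165-109519224, plus strand: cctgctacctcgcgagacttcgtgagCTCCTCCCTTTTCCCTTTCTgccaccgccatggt
Rpl37, chr15:5116583-5116642, plus strand: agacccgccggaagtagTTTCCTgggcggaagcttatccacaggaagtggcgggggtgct
Rpl28, chr7:4792935-4792994, plus strand: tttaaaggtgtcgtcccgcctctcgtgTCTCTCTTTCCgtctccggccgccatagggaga
Rpl4, chr9:64173357-64173416, plus strand: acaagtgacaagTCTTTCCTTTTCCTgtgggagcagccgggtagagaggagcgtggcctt
Rps7, chr12:28635924-28635983, minus strand: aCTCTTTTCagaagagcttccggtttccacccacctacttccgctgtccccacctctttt
The next 6 had the smallest changes, and the last of them was lower in Met + LPS.
Rpl10a, chr17:28328441-28328500, plus strand: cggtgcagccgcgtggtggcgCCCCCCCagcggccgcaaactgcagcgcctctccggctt
Rpl39, chrX:37085193-37085252, minus strand: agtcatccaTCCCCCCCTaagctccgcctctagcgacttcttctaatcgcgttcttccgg
Rpl41, chr10:128549139-128549198, minus strand: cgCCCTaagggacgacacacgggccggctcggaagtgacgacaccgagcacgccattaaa
Rpl27, chr11:101442215-101442274, plus strand: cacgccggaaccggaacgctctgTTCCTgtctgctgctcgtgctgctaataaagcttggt
Rps27l, chr9:66946056-66946115, plus strand: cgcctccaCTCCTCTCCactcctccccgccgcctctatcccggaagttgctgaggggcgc
Rpl7l1, chr17:46782627-46782686, minus strand: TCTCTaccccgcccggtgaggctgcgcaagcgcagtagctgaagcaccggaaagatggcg

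The run of C and T was 20 letters long in Rpl27a and began 4 bases before the listed start, and it was 14 letters long in Rpl13a and in Rpl4. The run had 4 letters in Rpl41 and 5 in Rpl27 and in Rpl7l1, the latter a nucleolar relative of Rpl7 with a role in ribosome assembly. Among the largest changes, Rpl28 had 11, Rps7 8 and Rpl37 6 letters. Among the smallest changes, Rpl39 and Rps27l had 9 letters each and Rpl10a had 7. Of the marked runs, only those of Rpl13a, Rpl27a and Rpl28 reach into the transcript. The marked runs of all the other printed genes, Rpl4 and Rps7 among them, lie wholly before the listed start. Of the 93 members, 68 had a RefSeq promoter. Rps19bp1 matched the rule but encodes a protein that binds Rps19. Without it, a run of at least 8 letters occurred in 36 of 67 members (53.7%) and in 25.8% of all 27025 genes with a promoter, expressed or not. A gene counted here if any of its listed promoters matched, whereas the sequences above show the first listed one. The letters CTTTC on the sense strand, searched from 25 bases before the start to 50 after it, occurred in 49.3% of members and in 11.1% of these genes, and the longer CTCTTTC, which contains it, in 17.9% and 1.20%. The letters CGGAAG, a core of the binding site of ETS factors, occurred on either strand in 64.2% of members and 18.8% of these genes over 250 bases before to 50 after the start, and GGGCGG, a GC box, in 59.7% and 38.2%. TATAAA on the sense strand was found in 10.4% and 9.77%. These are matches of letters, and a listed start can lie some bases away from the one used in macrophages.

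The libraries held 25457016 to 30762754 reads on genes, recovered from the TPM values, and the members with at least 10 TPM had 64 to 25605 of them per library. All 8 macrophage markers, among them Adgre1, Csf1r, Cd68 and Lyz2, were above 1 TPM in every library and summed to 44166 to 46080 TPM in untreated, 35148 to 35860 in LPS and 29186 to 29304 in Met + LPS libraries. None of the 5 fibroblast and none of the 5 erythroid markers reached 1 TPM. Of 5 T cell markers, Lck alone did, in all LPS-treated libraries (5.28 to 12.3 TPM, with 0.898 and 0.810 TPM in the untreated ones), while Cd3e was at most 0.0645 TPM. Among 5 B cell markers only Cd79b did (0.462 to 2.67 TPM), and of 6 neutrophil markers Elane, Mpo and Ngp did, with list totals of 20.4 to 21.5 TPM in untreated, 9.76 to 15.2 in LPS and 21.5 to 22.3 in Met + LPS libraries. The part of these shifts in the results was not tested.

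The ribosomal protein mRNAs were among the most abundant of these cells. Their levels differed 309-fold among the 80 members that averaged at least 10 TPM, from 11.1 TPM for Rps4l to 3416 TPM for Rplp1. The 3 highest were Rplp1 and Rplp0, acidic proteins of the lateral stalk that recruits the elongation factors, and Rps15, a protein of the small subunit's head. The lowest tested were Rps3a3, a processed pseudogene, Rpl36al, a copy of Rpl36a, and Rps27rt, a copy of Rps27, each near 1 TPM. Members with few TPM included proteins that every ribosome holds, since Rpl13a had 13.5 to 21.3 TPM, Rps10 2.16 to 4.30 TPM and Rpl24 0.678 to 2.04 TPM. These 3 and Rpl36al are the 4 members with at least 20% of their exon bases in same-strand exons of another annotated gene, 47.0% for Rpl24 (chr16:55966275-55971435), 35.4% for Rpl13a (chr7:45125558-45128761), 24.5% for Rpl36al and 20.6% for Rps10. The overlapping genes Gm28037, Gm45713, Gm49383 and RPS10-NUDT3 were at 0 TPM in all 6 libraries, and the part of this overlap in the low levels was not tested.

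Many members also have near-identical copies in the genome, and the counting by the authors could have split or dropped their reads. In 28 of the 93 members at least 80% of the exonic 31-mers (stretches of 31 bases) occurred in no other gene, and in 15 under 50% did, among them Rplp1 (24.9%). The 287 genes with "-ps" symbols together held 145 to 186 TPM in a library. Rpl10l and Rps12l1 had no reads, which allows up to 0.409 and 1.05 TPM at 3 reads per library, a limit that covers counting error only. Rpl3l, a muscle form of Rpl3, and Rpl6l were below the filter.

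As a group, the members took 4.55% and 4.56% of all TPM without treatment, 3.68% and 3.69% with LPS, and 4.13% and 4.21% with Met + LPS. The libraries of the 3 groups did not overlap. The summed level was 45549 ± 9.04 TPM in untreated BMDMs, 36807 ± 61.5 TPM with LPS and 41673 ± 571 TPM with Met + LPS (mean ± SD, n = 2), a difference of -19.2% for LPS vs. untreated and of 13.2% for Met + LPS vs. LPS. A two-sided exact permutation test of 2 libraries against 2 gave p = 0.333 for each pair of groups, the smallest value that it can give. The values of the subunits were close, for the large one -19.4% and 13.3% and for the small one -18.9% and 13.1%. These values are shares of each library and do not measure the number of cells or the RNA per cell. In these bulk samples a change in all cells and a change in some of them cannot be told apart.

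**Figure D1:**
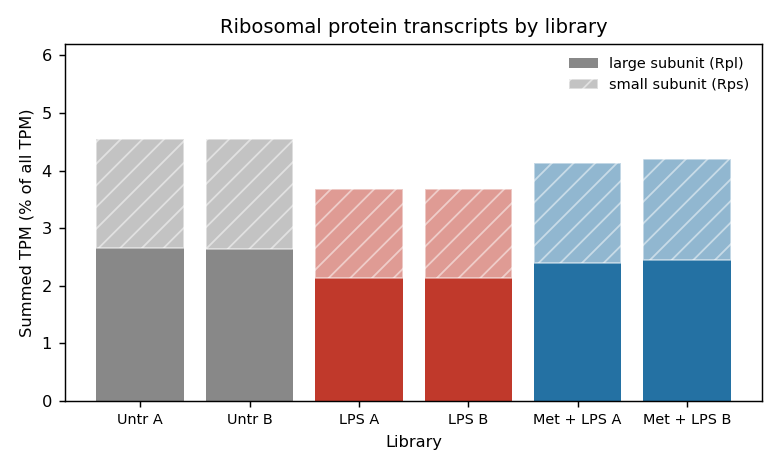
Summed TPM of the ribosomal protein genes in each of the 6 libraries, in percent of all TPM of the library, with the large subunit (Rpl) below and the small subunit (Rps) hatched above. In TPM the LPS libraries were lowest (3.68% and 3.69%) and the Met + LPS libraries lay between them and the untreated ones, while after median-ratio scaling the log2 ratio of LPS to untreated was 0.18.

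LPS vs. untreated asks how the early response to a bacterial product changed these transcripts. In TPM, ribosomal protein transcripts took a smaller share of the mRNA after LPS, but their median log2 fold change lay above that of all tested genes, and the direction turned when the libraries were rescaled. In limma on log2(TPM + 1), 68 of 89 members fell and 0 rose at an adjusted p-value under 0.01, beside 60.1% of all tested genes that fell and 16.2% that rose. At an unadjusted p-value under 0.05 1 member was higher, and limma voom on the recovered reads called 72 lower and 0 higher (61.8% and 17.1% of all genes). The median log2 fold change of members was -0.30, beside -0.48 for all tested genes, a difference of 0.18.

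TPM sum to a constant in each library, so that a larger share for some genes leaves a smaller one for the rest. The 474 genes that rose at least 4-fold with LPS took 1.04% ± 0.0056 of TPM in untreated and 17.3% ± 0.222 in LPS libraries (SD, n = 2), and the part of this in the members' values was not tested. Scaled by the median ratio over genes, as the size factors of the study's own DESeq2 test do, the median of all tested genes was -0.048 and that of members 0.19. On that scale 46 of 89 members rose and 0 fell (29.1% and 29.5% of all genes), with 0 lower at an unadjusted p-value under 0.05. Voom with TMM scaling gave 49 higher and 0 lower (30.7% and 34.6% of all genes). The members' median lay above that of all tested genes both in TPM and after median-ratio scaling, while the sign of the change itself depended on the scale.

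**Figure D2:**
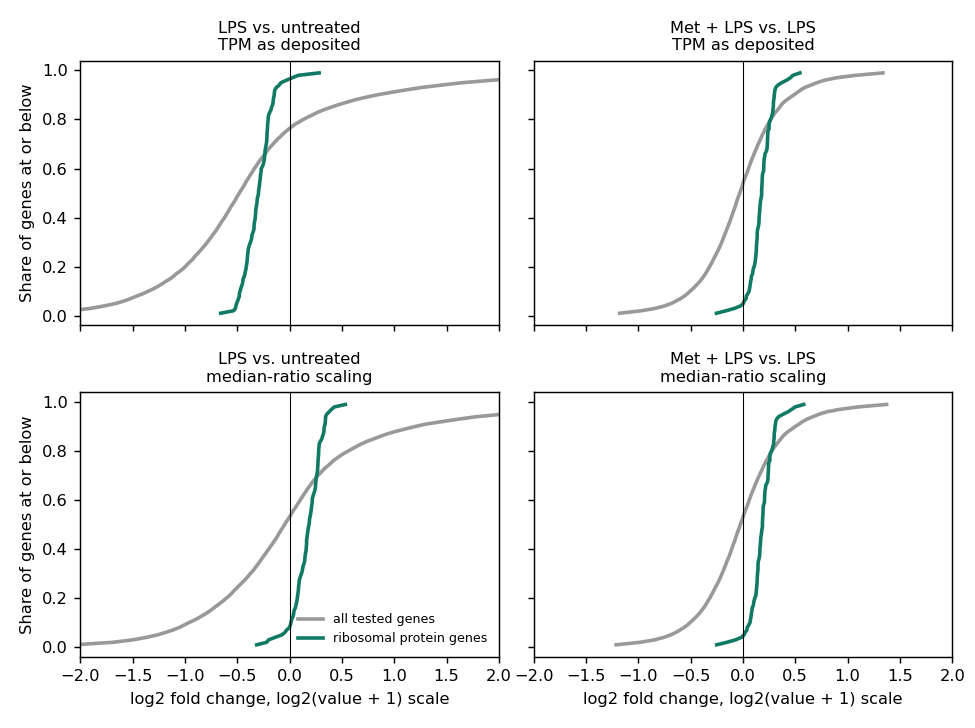
Share of genes at or below each log2 fold change, for all tested genes and for the 89 tested ribosomal protein genes, in TPM as deposited (top) and after median-ratio scaling (bottom), drawn for values from -2.0 to 2.0. For LPS vs. untreated the members' median was -0.30 in TPM and 0.19 after scaling, whereas for Met + LPS vs. LPS it was 0.18 and 0.19.

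The changes of the members with at least 10 TPM lay close together. Among these 80 the log2 fold changes with LPS had an SD of 0.105, with a median SE of 0.04. Over all tested genes, a set without this limit on the level, the SD was 1.13. The 9 tested members averaging under 10 TPM ran from -1.18 to 0.59. Between replicates these 80 members differed by a median of 0.042, 0.072 and 0.033 (log2) in the untreated, LPS and Met + LPS groups. Most LPS changes in TPM were therefore larger than the spread between replicates, and 81 of 89 members had both LPS libraries below both untreated ones, as did 71.5% of all tested genes, and 1 had both above (20.1%).

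Rplp0, which the study also used as a reference gene in RT-qPCR (ENSMUSG00000067274, chr5:115559467-115563727), had 1695 and 1703 TPM in untreated, 1323 and 1375 in LPS and 1490.1 and 1510.1 in Met + LPS libraries. The groups did not overlap, with the LPS libraries lowest. Its log2 fold change with LPS was -0.33 ± 0.03 (SE, adjusted p = 7.7e-05) in TPM and 0.15 (adjusted p = 0.0052) after median-ratio scaling, close to the median of the members on both scales. The other stalk proteins fell too in TPM, Rplp1 by 0.40 and Rplp2 by 0.35 on the log2 scale, and had 0.085 and 0.14 after scaling, which missed the threshold.

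The members with the largest and the smallest LPS changes were partly low ones. The 5 lowest log2 fold changes in TPM were those of Rpl32l (-1.18), Rps10 (-0.59), Rpl10a (-0.52), Rps3a2 (-0.52) and Rpl13a (-0.51), of which Rpl10a, a protein of the L1 stalk (201 and 211 TPM untreated, 141 and 145 with LPS), and Rpl13a passed the test. After median-ratio scaling Rpl10a was at -0.034 and Rpl13a at -0.050. At the other end were Rpl24 (0.59), Rps27rt (0.24), Rpl39l (0.032), Rps3a3 (0.021) and Rps25 (-0.079), a protein of the small subunit that viral internal ribosome entry sites depend on, and none of these 5 passed. Rpl24, with 5 to 16 reads per library, was the member whose LPS libraries both lay above the untreated ones in TPM.

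By role, all 3 stalk genes, both genes of the 5S RNP, 9 of 12 genes mutated in Diamond-Blackfan anemia, a failure of red cell formation, and 6 of 7 genes with reported tasks outside the ribosome fell in TPM, and after median-ratio scaling 1, 2, 9 and 2 genes of these lists rose and 0 fell. Of all tested genes 60.1% fell in TPM and 29.1% rose after scaling, and with so few genes in a list nothing is read from its count. Rpl5 and Rpl11, which bind 5S rRNA and outside the ribosome the p53 regulator Mdm2, had log2 fold changes of -0.15 and -0.27. Scaled by the median ratio, Rpl5 (0.34) and Rpl11 (0.22) rose, as did Rps6 (0.31, adjusted p = 0.00012), whose TPM value was -0.18. Rps3 (-0.45) and Rps19 (-0.47) fell in TPM and were at 0.040 and 0.019 after scaling. The cut-off of the study for this comparison, a log2 fold change of at least 2, was passed by 0 members in limma, by 0 at an unadjusted p-value under 0.05 and by 0 in voom, and by 6.08% of all tested genes.

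Met + LPS vs. LPS asks what metformin pretreatment did to the same LPS response. Here the members' median lay above 0 in TPM, in voom and under both scalings, and 31 members passed the test, while the other 58 did not. The 89 log2 fold changes ran from -0.33 to 0.81, with 4 below 0. In limma these 31 of 89 rose and 0 fell, beside 14.5% of all tested genes that rose and 18.0% that fell, and the median log2 fold change was 0.18 for members and -0.030 for all tested genes. At an unadjusted p-value under 0.05, 65 members were higher and 2 lower, and voom called 51 higher and 0 lower (18.7% and 22.9% of all genes), and with TMM scaling 64 and 0 (20.9% and 20.5%). The libraries did not overlap for 74 members that were higher (33.8% of all tested genes) and 3 that were lower (40.0%). After median-ratio scaling the median was 0.19 and 35 members rose and 0 fell, with 15.3% and 17.8% of all genes. Other choices lowered the count, to 9 with no trend in the variance (11.6% of all tested genes higher), to 14 of 91 with no filter (5.43%) and to 18 with the compared groups only (9.44%), with 0 lower in each.

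The count moved with single libraries. It was 8 without Met + LPS replicate B, or 8.99% of members beside 9.73% of all tested genes called higher in that fit, so that there the members' share was not above the background. It was 16 without Met + LPS replicate A (18.0% of members, 9.25% of all genes), 20 without LPS replicate B (22.5% and 9.13%) and 22 without LPS replicate A (24.7% and 10.1%). Without untreated replicate A or B, which enter only through the estimate of the spread, it was 18 (20.2% of members, 9.67% and 9.69% of all genes). Every call of a member in these 6 fits was an increase, and the median lay between 0.15 and 0.19.

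**Figure D3:**
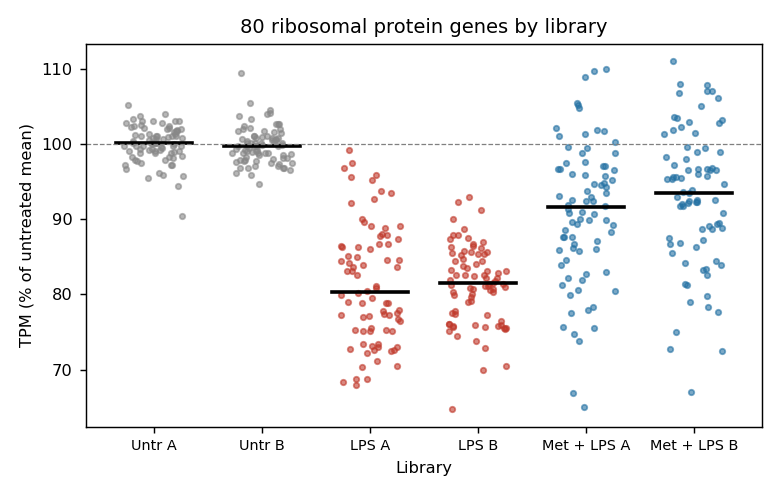
TPM of each of the 80 members with at least 10 TPM in percent of its untreated mean, by library (points), with the median of the members (bars). The medians were 80.3% and 81.5% in the LPS and 91.6% and 93.6% in the Met + LPS libraries of the untreated mean in TPM, a scale on which LPS lies below untreated. After median-ratio scaling the median log2 fold changes of these 80 members against untreated were 0.19 and 0.38 instead.

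The 31 members that rose were 20 of the large subunit and 11 of the small one. From the highest level to the lowest, they included Rplp0, Rpl17, Rpl4, Rps3a1, Rpl32, Rpl23, Rpl7a, Rpl36, Rps12, Rps27a, Rps23, Rps6, Rps16, Rpl14, Rpsa, Rpl28, Rpl9, Rpl6, Rplp2, Rps18, Rps7, Rpl13, Rpl12, Rpl37, Rpl5, Rpl27a, Rpl22, Rps15a, Rpl35a and Rpl13a. Their log2 fold changes ran from 0.15 for Rplp0 to 0.44 for Rpl13a.

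Rpl13a, a large-subunit protein that in its phosphorylated form joins the GAIT complex, a silencer of inflammatory mRNAs in myeloid cells, had 21.3 and 20.6 TPM in untreated, 15.3 and 13.5 in LPS and 19.4 and 20.5 in Met + LPS libraries. It had the largest change of the members that passed, 0.44 ± 0.07 (SE, adjusted p = 0.0023), with 209 to 384 reads per library. In TPM the Met + LPS libraries lay above both LPS libraries and just below the untreated ones. On that scale the members' sign against untreated differs from that after median-ratio scaling.

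The next in size at 10 TPM or more, chosen after their values were seen, included Rpl27a (0.34), Rpl37 (0.31), Rpl28 (0.31), Rpl4 (0.30) and Rps7 (0.30), all past the threshold. Rpl4, which lines the exit tunnel for the nascent chain, had 1191 and 1119 TPM with LPS and 1406 and 1441 with Met + LPS, above its untreated 1333 and 1339.6. Rps7, mutated in Diamond-Blackfan anemia, had 278 and 274 TPM with LPS and 333 and 347 with Met + LPS. In both, the Met + LPS libraries lay well above the LPS libraries, with SEs of 0.04.

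Rpl5 had 208 and 208 TPM in untreated, 193 and 183 in LPS, and 229 and 231 in Met + LPS libraries, a change of 0.29 ± 0.04 (SE, adjusted p = 0.0009). Its partner Rpl11 had 285 and 273 TPM with LPS and 307 and 312 with Met + LPS (0.15 ± 0.03, adjusted p = 0.011). Both were higher in both Met + LPS libraries, but Rpl11 missed the threshold. Rps6, the protein phosphorylated by the S6 kinases downstream of mTORC1, had 561 and 548 TPM in untreated, 494 and 488 in LPS and 604 and 593 in Met + LPS libraries (0.29 ± 0.03, adjusted p = 0.00047). Rps6 and Rpl5 thus lay above their untreated libraries in both Met + LPS libraries.

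By role, to be read beside the 14.5% of all tested genes that rose and the 18.0% that fell, 2 of 3 stalk genes rose, Rplp2 by 0.29 and Rplp0 by 0.15, while Rplp1 had 0.14 (adjusted p = 0.027). Of the 12 genes of Diamond-Blackfan anemia 3 rose (Rpl5, Rps7 and Rpl35a), and the others ranged from 0.079 for Rpl26 to 0.39 for Rps10. Rps19, the most often mutated of them, had 101 and 111 TPM with LPS and 126 and 129.9 with Met + LPS (0.27 ± 0.07, adjusted p = 0.016). Of the 7 genes with tasks outside the ribosome 4 rose, Rpl13a, Rpl22 (0.29), Rps6 and Rpsa (0.21), the last also known as the laminin receptor. Rps3, which takes part in NF-κB binding to DNA, had 314 and 319.5 TPM with LPS and 359 and 370.4 with Met + LPS, a change of 0.20 (adjusted p = 0.011) that just missed the threshold, and Rpl10, placed last in the maturing large subunit, had 0.13.

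**Figure D4:**
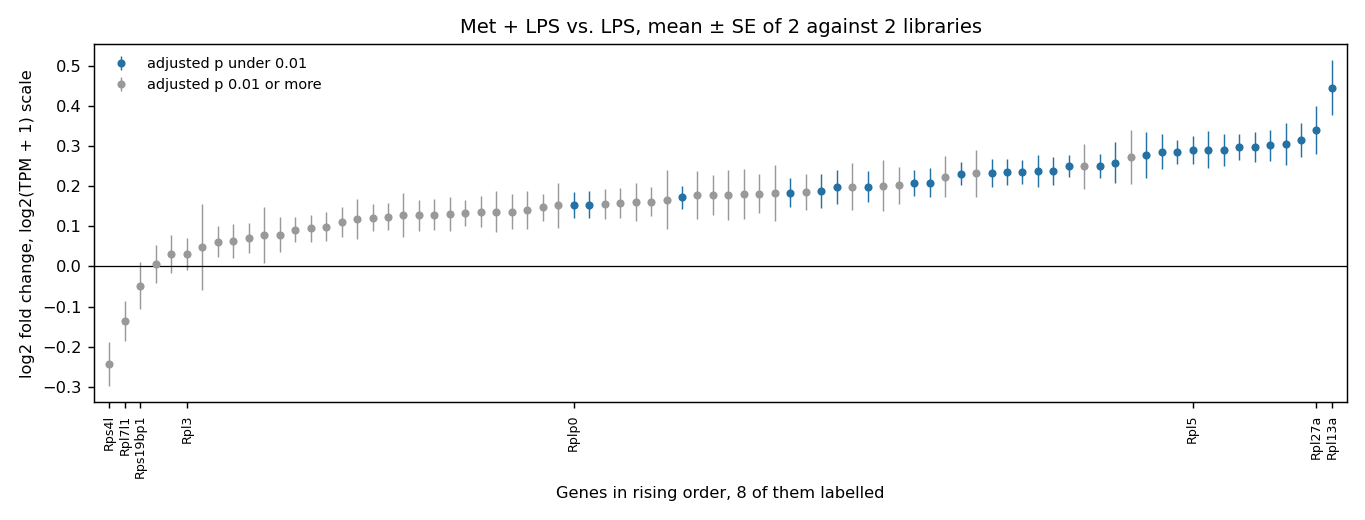
Log2 fold change (mean ± SE) of the 80 members with at least 10 TPM between Met + LPS and LPS, 2 libraries each, in rising order, with members past an adjusted p-value of 0.01 in blue. Rpl13a was highest (0.44), and Rps4l, Rpl7l1 and Rps19bp1 were the 3 members below 0.

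At the low end of the members with at least 10 TPM, again named after their values were seen, stood Rps4l, Rpl7l1, Rps19bp1 and Rps27l, which are given below. Above them lay Rpl3 (0.031), a protein of the peptidyl transferase centre, Rps14 (0.030), Rpl27 (0.048), Rpl41 (0.062), Rpl39 (0.063), which lies in the exit tunnel, and Rpl10a (0.071). Rpl3 had 382 and 361 TPM with LPS and 388 and 371 with Met + LPS, so that the libraries overlapped. No test of the difference between members was made. Over the 80 members the log2 fold changes had Spearman's rho -0.18 with the percentage of own 31-mers, 0.14 with exon length and 0.041 with the mean level, given as a description across genes of the same libraries. The 33 members with a run of at least 8 C and T in the window around the listed start, before or after it, had a median of 0.18. So had the 25 with a shorter run. In LPS vs. untreated these medians were -0.27 and -0.37 and in Met + LPS vs. untreated -0.059 and -0.18, in TPM, a scale on which the members' sign against untreated differs from that after median-ratio scaling, and the difference by run length was not tested.

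Several members are second copies of other ribosomal protein genes. A chosen list held 9 such paralogs that were tested, without Rpl32l and Rpl37rt. Of these 9, 0 passed in limma, beside 14.5% of all tested genes that rose and 18.0% that fell. At an unadjusted p-value under 0.05, 1 was higher and 2 were lower, and voom called 0. Rps4l, an expressed copy of Rps4x annotated as a processed pseudogene, had 13.7 and 13.2 TPM in untreated, 10.7 and 10.9 in LPS and 8.98 and 8.99 in Met + LPS libraries (-0.24 ± 0.06, adjusted p = 0.011). Rpl7l1 had 102 and 108, 90.8 and 84.7, and 78.2 and 81.3 TPM (-0.14 ± 0.05, adjusted p = 0.063). In TPM both were lowest with Met + LPS, where Rps4x (0.13) and Rpl7 (0.12) were higher than with LPS, though none of these 4 passed. After median-ratio scaling Rpl7l1 was higher with Met + LPS than in untreated BMDMs (0.10). Rps27l, a p53-responsive copy of Rps27, was at 0.0057 and Rpl22l1, the copy of Rpl22, at 0.18. The remaining 5, Rpl36al (0.12), Rpl39l (0.47), Rps27rt (-0.33), Rps3a2 (0.17) and Rps3a3 (0.51), averaged under 10 TPM. Rps19bp1 had 54.8 and 55.7 TPM in untreated, 40.0 and 38.6 in LPS and 35.9 and 40.2 in Met + LPS libraries.

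Rps27a is made as a fusion with ubiquitin and rose by 0.17 (adjusted p = 0.003). Fau encodes Rps30 as a fusion with a ubiquitin-like protein and did not match the rule on symbols. It had 1175 and 1168 TPM in untreated, 792 and 920.0 in LPS and 902 and 930.2 in Met + LPS libraries, so that the LPS and Met + LPS libraries overlapped (0.10 ± 0.07).

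The 5 largest log2 fold changes of any tested member were those of Rpl32l (0.81), Rps3a3 (0.51), Rpl39l (0.47), Rpl13a (0.44) and Rps10 (0.39), of which only Rpl13a passed, and the 5 smallest those of Rps27rt (-0.33), Rps4l (-0.24), Rpl7l1 (-0.14), Rps19bp1 (-0.048) and Rpl37rt (0.0019). Rpl32l, with a mean of 4.33 reads, owed its value to a single library of 3.12 TPM, and without Met + LPS replicate B it was at -0.0052. Rpl24 was at 0.069. The cut-off of the study for this comparison, a log2 fold change of at least 0.7, was passed by 0 members in limma and by 0 in voom, also at an unadjusted p-value under 0.05, and by 8.28% of all tested genes.

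Met + LPS vs. untreated compares both treatments with neither. In TPM the members were slightly lower, with 28 of 89 lower and 1 higher (58.8% and 16.3% of all tested genes) and a median of -0.12 (all tested genes -0.48). Scaled by the median ratio, 71 rose and 0 fell (31.4% and 32.2% of all genes), with a median of 0.37, and 0 were lower at an unadjusted p-value under 0.05. Voom called 30 lower and 4 higher (60.7% and 17.8% of all genes), and with TMM scaling 76 higher and 0 lower (34.4% and 35.7%). The libraries did not overlap for 59 members that were lower (69.1%) and 9 that were higher (21.7%). A log2 fold change of at least 2 was reached by 0 members in limma, in voom and at any p-value, and with the adjusted p-value by 5.35% of all tested genes. The member called higher in TPM was Rpl5 (0.14 ± 0.04, adjusted p = 0.0081), which was at 0.64 after scaling. The largest values beside it were those of Rpl24 (0.66), Rps3a3 (0.53), Rpl39l (0.50) and Rps15a (0.12), and the smallest those of Rps4l (-0.53), Rps19bp1 (-0.53), Rpl37rt (-0.50), Rpl10a (-0.45) and Rpl7l1 (-0.39). The count of 29 fell to 18 without untreated replicate A, 13 without untreated replicate B and 14 without Met + LPS replicate A, fits in which 49.3%, 49.1% and 52.6% of all tested genes were lower.

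The mitochondrial ribosome, whose proteins are encoded by other nuclear genes (Mrpl and Mrps), served for comparison. Of 77 tested genes 5 were higher and 7 lower in Met + LPS vs. LPS (14.5% and 18.0% of all tested genes), with a median of -0.010 (all tested genes -0.030). In LPS vs. untreated 58 were lower and 2 higher (60.1% and 16.2%), with a median of -0.53 (all tested genes -0.48). After median-ratio scaling 17 were lower and 15 higher (29.5% and 29.1%). In TPM the 35 tested genes with "-ps" symbols had medians of 0.14 in Met + LPS vs. LPS and -0.35 in LPS vs. untreated. Between Met + LPS and LPS 0 of them passed in limma (4 higher and 2 lower at an unadjusted p-value under 0.05), nor did any in voom.

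The next list held other translation genes with reported TOP mRNAs, and the shares of all tested genes given above for each comparison apply to it and to the lists that follow. Of 21 such genes, with the elongation factors, Rack1, Tpt1 and Pabpc1 among them, 10 rose and 1 fell in Met + LPS vs. LPS, with a median of 0.20. Examples named after their values were seen are Npm1 (0.60), a nucleolar chaperone of ribosome assembly with 339.6 and 307 TPM in LPS and 486 and 491 in Met + LPS libraries, Eif4b (0.54), Eif4a2 (0.48) and Rack1 (0.16), a protein of the small subunit. The gene that fell was Hnrnpa1 (-0.18). With LPS, 13 of the 21 fell and 2 rose in TPM (median -0.27), and 12 rose and 2 fell after median-ratio scaling.

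Another list held genes that control TOP mRNAs and mTORC1. Of 23 tested, 18 fell and 4 rose with LPS in TPM, and 9 fell and 6 rose after median-ratio scaling. Larp1, which binds the cap and the TOP tract, rose from 87.0 and 85.5 TPM to 281 and 291 with LPS (1.72 ± 0.04, adjusted p = 9.5e-08) and had 269 and 258 with Met + LPS. Sesn1 and Sesn2 encode sestrins, which restrain mTORC1 when amino acids are short. Sesn1 fell from 186 and 187 TPM to 7.36 and 7.40 (-4.48 ± 0.08) and stayed at 7.94 and 6.61 with Met + LPS. Sesn2 had 25.2 and 26.6 TPM in untreated and 4.50 and 4.34 in LPS libraries (-2.31 ± 0.10), and 26.0 and 20.7 with Met + LPS.

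Between Met + LPS and LPS 8 of the 23 rose and 4 fell. The largest increases over these lists were those of Sesn2 (2.16 ± 0.10, adjusted p = 2.4e-05), Eif4ebp1 (1.08 ± 0.06), the 4E-BP1 repressor with 36.8 and 38.2 TPM in LPS and 76.3 and 84.7 in Met + LPS libraries, and Ipo7 (0.91 ± 0.04). The largest decreases were those of Ddit4 (-0.87), the mTORC1 inhibitor REDD1 at 1.42 to 4.37 TPM, Rps6ka5 (-0.74), the kinase MSK1, and Deptor (-0.47), an mTOR inhibitor. Larp1 was at -0.12 and missed the threshold. Ddit4 (0.89) and Rps6ka5 (1.46) had risen with LPS, and Mlst8 (-1.63), a subunit of mTORC1, had fallen, on both scales. Against untreated BMDMs, Larp1 (1.60), Eif4e (1.17) and Ipo7 and Rps6ka2 (both 0.79) were highest and Sesn1 (-4.50), Mlst8 (-1.97) and Eif4ebp2 (-1.63) lowest.

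Of the 8 tested kinases named for Rps6, 1 rose and 3 fell in Met + LPS vs. LPS, and 3 rose and 3 fell in LPS vs. untreated in TPM, or 5 rose and 1 fell after median-ratio scaling. Chaperones and importins that carry ribosomal proteins to the nucleus numbered 13, of which 6 rose and 1 fell in Met + LPS vs. LPS (median 0.17). Ipo7, an importin for ribosomal proteins, had 52.4 and 50.5 TPM in untreated, 48.3 and 46.1 in LPS and 90.9 and 87.9 in Met + LPS libraries, above both other groups. With LPS 10 of the 13 fell and 2 rose in TPM, and 2 fell and 4 rose after scaling.

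**Figure D5:**
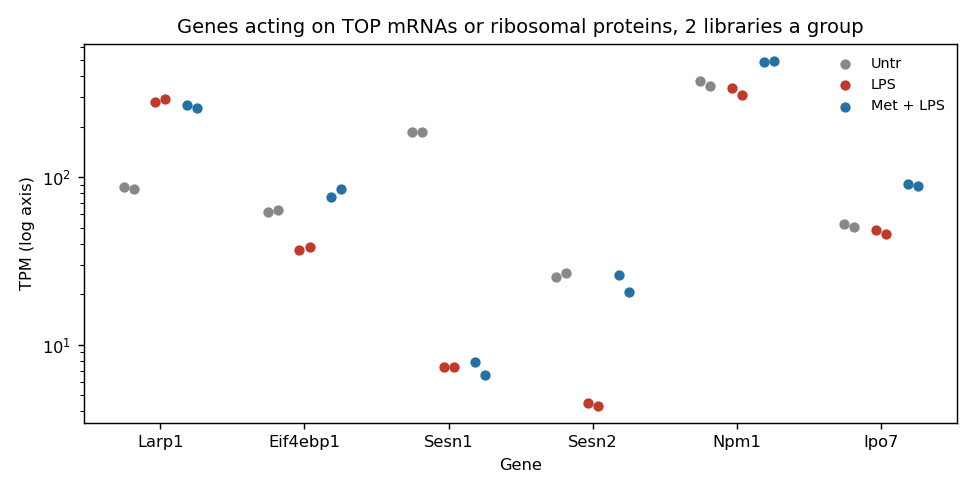
TPM (log axis) of 6 genes that act on TOP mRNAs, mTORC1 or ribosomal proteins, with 1 point per library. Larp1 lay near 86 TPM in untreated and at 258 to 291 TPM in all LPS-treated libraries, while Sesn2, Eif4ebp1, Npm1 and Ipo7 were higher in both Met + LPS than in both LPS libraries.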

How the data were processed

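RNA-seq of 6 BMDM libraries (3 groups of 2) was analysed from the TPM values that the authors deposited per gene and library, without pooling. Per the labels and the study's methods, poly-A RNA was aligned to GRCm38 with STAR 2.6.1d and SAMtools 1.9 and counted with featureCounts (Subread 1.6.3) on Ensembl 94. How counts became TPM, and the handling of strand, is not given in the sources used here. The labels and the study's methods give different shares of L929-conditioned medium.

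TPM times exon length (GENCODE) gave whole reads within 0.02 for 96.1% to 96.3% of values above 0. Genes that reached 1 TPM in 2 or more libraries were tested with limma 3.58.1 (R 4.3.3) on log2(TPM + 1), with eBayes and a trend, all 6 libraries in the fit, 3 residual degrees of freedom and Benjamini-Hochberg adjustment. A gene was called at an adjusted p-value under 0.01, with no fold minimum. Log2 fold changes on this scale understate those of low genes. Median-ratio scaling, voom (with and without TMM factors), other pseudocounts, filters and fits and leaving out libraries served as alternatives. On simulated reads (LPS vs. untreated, 12408 genes), limma recovered 0 of 46 genes changed 1.25-fold, 23 of 46 changed 1.5-fold and 35 of 48 changed 2-fold, with 2 false calls. Voom recovered 19 of 46, 36 of 46 and 43 of 48, with 0 false calls. The simulation changed few genes and used 1 set spread between libraries. In the data most tested genes were called for LPS, so the simulated counts do not give the recovery rate there.

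The members and gene lists were chosen with earlier results of these data known. Named genes are members with set roles, the 3 highest and 3 lowest members by level, the 5 largest and smallest changes per comparison, and, from lists of related genes, the 3 largest called changes in each direction per comparison. The study's protein and RT-qPCR experiments were not analysed here, and some items are not reported here.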

Additional observations from a re-analysis of the deposited data

How the results depend on the processing

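Scaling set the sign of the comparisons with untreated cells. With median-ratio scaling 46 members were called in LPS vs. untreated and 71 in Met + LPS vs. untreated, all higher, with medians of 0.19 and 0.37 and log2 ratios of the summed level of 0.18 and 0.37, and voom with TMM scaling called 49 and 76, all higher (medians 0.17 and 0.38). Single genes also turned in LPS vs. untreated under median-ratio and under TMM scaling, Rplp0 to 0.15 and 0.14, Rplp1 to 0.085 and 0.069, Rplp2 to 0.14 and 0.12, Rpl5 to 0.34 and 0.33, Rpl11 to 0.22 and 0.20, Rps25 to 0.41 and 0.39, Rps3 to 0.040 and 0.025, Rps6 to 0.31 and 0.30 and Rps19 to 0.019 and 0.0035, and in Met + LPS vs. untreated Rpl10a to 0.044 and 0.052 and Rpl7l1 to 0.10 and 0.11. Rps3a3 turned to -0.056 with a pseudocount of 0.1 and to -0.049 in voom. For Met + LPS vs. LPS, 31 calls became 14 with no filter, 18 with the compared groups only, 9 with no trend, 51 in voom, 64 with TMM scaling (median 0.21) and 59 at an adjusted p-value under 0.05. For Met + LPS vs. untreated, 29 calls became 16 with no trend and 44 at an adjusted p-value under 0.05. The voom median in LPS vs. untreated was -0.28. Among the 27 tested members with at least 80% own 31-mers, 21 were lower in LPS vs. untreated (77.8%, beside 76.4% of all members). In Met + LPS vs. LPS 7 were higher (25.9%, beside 34.8%), and in Met + LPS vs. untreated 12 were lower (44.4%, beside 31.5%). The log2 ratios of their summed level in these 3 comparisons were -0.32, 0.15 and -0.17. Apart from the change of threshold, the cause of these differences was not tested. Without members averaging under 10 TPM, an alternative chosen after seeing the data, the calls were 68, 31 and 29.

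Leaving out 1 library at a time gave 50 to 69 calls in LPS vs. untreated (medians -0.32 to -0.29), 8 to 22 in Met + LPS vs. LPS (0.15 to 0.19) and 13 to 30 in Met + LPS vs. untreated (-0.14 to -0.077), and summed log2 ratios of -0.31 to -0.31, 0.17 to 0.19 and -0.14 to -0.11. This turned the sign, in Met + LPS vs. LPS, of Rpl24 (-0.16 to 0.30), Rpl32l (-0.0052 to 1.62), Rps27l (-0.048 to 0.059), Rps19bp1 (-0.13 to 0.031), Rps3a2 (-0.11 to 0.44), Fau (-0.0065 to 0.21), Rpl26 (-0.031 to 0.19), Rpl36al (-0.032 to 0.26), Rpl37rt (-0.073 to 0.077), Rpl3 (-0.0090 to 0.072) and Rpl27 (-0.075 to 0.17), and in LPS vs. untreated of Rps3a3 (-0.40 to 0.44), Rps27rt (-0.034 to 0.52) and Rpl39l (-0.12 to 0.18). With the letters A and B as a replicate block, 68, 32 and 31 members were called. The letters were not shown to pair the libraries, since deviations of same-lettered libraries correlated by -0.0037, 0.028 and 0.0062 over the tested genes. Over the members alone, which share libraries, the correlations were 0.34 (untreated and LPS), 0.31 (untreated and Met + LPS) and 0.029 (LPS and Met + LPS). Genes with few reads are limited by depth, as at 5 to 16 reads for Rpl24.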
